A study of Mus musculus with 2 samples.

Results

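The ubiquitin-conjugating enzyme genes were taken as all protein-coding mouse genes whose RefSeq symbol starts with Ube2, 37 of 21887 protein-coding genes. They were described in ChIP-seq peak lists from cultured endothelial cells that had been isolated from the aorta of wild-type mice and grown with 20% serum, heparin and endothelial growth supplement. Soluble chromatin was immunoprecipitated with 10 µg of an antibody against ETS1 in one group and against ETS2 in the other, with 1 library per antibody. Both groups share the genotype, the cell type and the culture, and by the labels differ in the antibody alone. The labels do not say how many animals the cells came from, and no treatment, input or IgG library was analysed here. A gene was counted in a list where the centre of a deposited peak lay within 1 kb of either annotated end of the gene, and all coordinates are mm10. There are no replicates, so no value below has a replicate error and no difference between the antibodies was tested. A peak at a gene end is not shown to be a site of either factor.

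Ubiquitin is attached to proteins in a cascade. An E1 enzyme activates it, an E2 or ubiquitin-conjugating enzyme carries it as a thioester on a catalytic cysteine, and an E3 ligase helps to pass it to the substrate. The E2 often sets which kind of ubiquitin chain is built, and a few E2s carry ubiquitin-like modifiers such as NEDD8 or ISG15 instead. ETS1 and ETS2 are closely related DNA-binding proteins whose sites have GGAA at their core. In endothelial cells ubiquitination is known for its part in receptor turnover, inflammatory signalling through NF-kappaB and progression through the cell cycle. One gene chosen by its symbol, Ube2cbp, has the synonym Ube3d in the gene table and encodes an E2-binding ligase rather than an E2.

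The ETS1 list held a peak within 1 kb of an end for 21 of the 37 genes (56.8%, 95% Wilson interval 40.9 to 71.3), where 39.4% of all protein-coding genes had one. The ETS2 list did so for 21 genes too (56.8%), beside 40.0% of all protein-coding genes. Peaks of both lists were found at 17 genes (45.9%, interval 31.0 to 61.6), beside 28.7% of all. The ETS1 list alone held 4 genes (10.8%, beside 10.7%), and the ETS2 list alone held 4 (10.8%, beside 11.3%). The remaining 12 genes had no peak of either list within 1 kb of an end (32.4%, beside 49.3%). The shares in either list and in both lists therefore stood above those of all protein-coding genes, and those in a single list stood close to them. The intervals treat genes as separate draws and cover counting error only.

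At most genes in both lists the peaks met at the same site. At 14 of the 17 genes in both lists an ETS1 and an ETS2 peak overlapped by at least 1 bp (82.4%, beside 66.7% of the 6275 protein-coding genes in both lists). These 14 genes carried 15 overlapping pairs, because Ube2z had 2 pairs at one end. The centres of a pair lay 6 to 100 bp apart with a median of 56 bp, and the shared stretch was 82 to 176 bp long, for peaks that are 177 bp (ETS1) and 187 bp (ETS2) wide. Where a promoter table gave the strand, 11 pairs at 10 genes lay at the start-side end of the gene and 1 pair, at Ube2m, at the finish-side end. Of these 10 genes, Ube2b has its annotated start sites inside the gene (52000491 and 52000786), over 1 kb from its pair, so 9 genes had a pair within 1 kb of a start site. The other 3 pairs were at Ube2g2, Ube2o and Ube2w, whose strand was not read. At Ube2g1, Ube2h and Ube2l3 peaks of both lists were near an end and did not overlap.

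**Figure D1:**
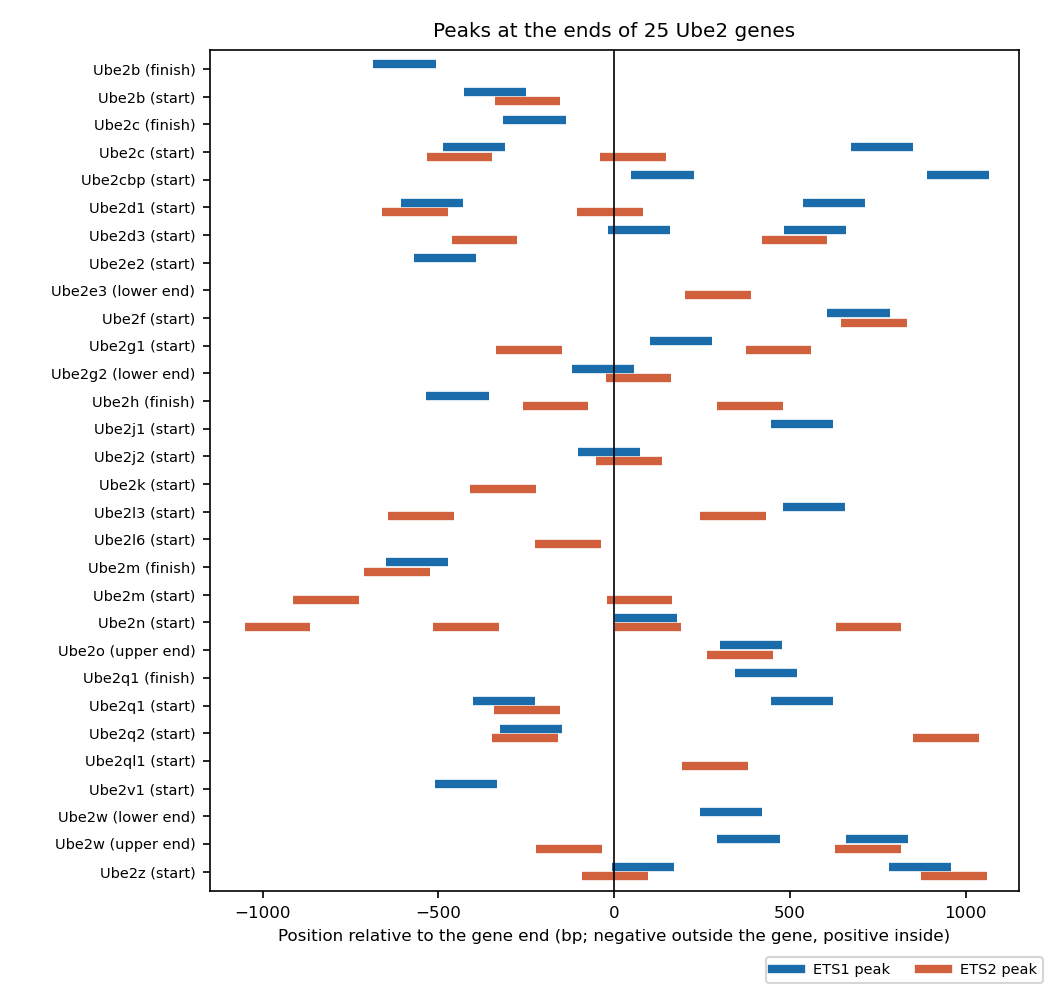
Peaks within 1 kb of an end of the 25 Ube2 genes that had one, as position relative to that end in bp, with ETS1 peaks in blue and ETS2 peaks in orange at their deposited width. Blue and orange bars lie above each other at 14 genes, and bars stand alone at the 8 genes found in 1 list.

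Sequences before the start site are shown for 6 genes whose start site is also the first base of the gene, to set the letters under the peaks beside the calls. They are RefSeq sequences of GRCm38.p6, whose chromosomes are those of mm10, 250 bases long, 5′ to 3′ on the + strand, with the last base next to the start site. Capitals mark each GGAA or its reverse complement TTCC. Ube2j2, Ube2q1, Ube2q2 and Ube2n had overlapping peaks, Ube2l6 an ETS2 peak alone and Ube2t neither. Their windows are chr4:155943563-155943812 for Ube2j2, chr3:89773359-89773608 for Ube2q1, chr9:55149119-55149368 for Ube2q2, chr10:95514912-95515161 for Ube2n, chr2:84798578-84798827 for Ube2l6 and chr1:134962315-134962564 for Ube2t.
Ube2j2: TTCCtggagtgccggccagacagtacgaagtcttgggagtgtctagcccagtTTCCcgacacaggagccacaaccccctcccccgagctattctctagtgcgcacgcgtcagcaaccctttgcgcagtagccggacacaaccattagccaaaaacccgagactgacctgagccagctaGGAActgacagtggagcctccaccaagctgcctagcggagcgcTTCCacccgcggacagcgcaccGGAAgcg
Ube2q1: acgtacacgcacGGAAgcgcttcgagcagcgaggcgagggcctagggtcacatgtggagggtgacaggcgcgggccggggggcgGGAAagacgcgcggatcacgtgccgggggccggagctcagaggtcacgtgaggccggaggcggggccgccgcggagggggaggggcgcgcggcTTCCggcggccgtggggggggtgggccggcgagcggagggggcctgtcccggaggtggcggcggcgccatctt
Ube2q2: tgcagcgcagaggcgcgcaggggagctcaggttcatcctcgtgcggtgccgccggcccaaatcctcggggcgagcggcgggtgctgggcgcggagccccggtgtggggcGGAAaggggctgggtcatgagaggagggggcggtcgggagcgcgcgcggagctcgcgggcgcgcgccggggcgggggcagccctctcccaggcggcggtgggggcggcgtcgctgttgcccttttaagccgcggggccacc
Ube2n: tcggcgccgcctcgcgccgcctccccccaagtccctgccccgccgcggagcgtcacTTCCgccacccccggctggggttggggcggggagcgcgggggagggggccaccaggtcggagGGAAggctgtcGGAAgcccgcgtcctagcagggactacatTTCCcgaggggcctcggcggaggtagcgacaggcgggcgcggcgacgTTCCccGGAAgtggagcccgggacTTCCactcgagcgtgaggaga
Ube2l6: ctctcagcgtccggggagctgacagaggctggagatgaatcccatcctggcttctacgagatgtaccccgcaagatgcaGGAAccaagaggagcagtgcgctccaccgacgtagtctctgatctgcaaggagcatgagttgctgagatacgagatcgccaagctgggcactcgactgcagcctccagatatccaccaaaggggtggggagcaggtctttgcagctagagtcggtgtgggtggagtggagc
Ube2t: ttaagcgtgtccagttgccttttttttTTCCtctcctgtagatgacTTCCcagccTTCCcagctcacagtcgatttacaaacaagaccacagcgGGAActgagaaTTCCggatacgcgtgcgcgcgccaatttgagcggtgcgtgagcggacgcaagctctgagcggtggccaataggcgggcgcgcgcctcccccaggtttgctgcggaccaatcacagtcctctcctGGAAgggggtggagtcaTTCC

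Counting from 1 at the 5′ end, the ETS1 peak of Ube2j2 covered bases 149 to 250 of its window and the ETS2 peak bases 200 to 250. Both peaks held the cores at bases 222 and 244, and the latter is part of CCGGAA, which begins at base 242. From there a short repeat runs across the start site (chr4:155943804-155943827), in which GGAA occurs 3 times.
Ube2j2 repeat: ccGGAAgcGGAAgcGGAAgcgggc
Ube2q1 had 1 core under both peaks, at base 13, and another under the ETS2 peak alone, at base 85. The remaining core of Ube2q1, at base 178, begins TTCCGG, the reverse complement of CCGGAA, and lay outside both peaks. The window of Ube2q2 had a single core, at base 110, beyond the last base of the ETS1 peak (103) and of the ETS2 peak (90). For Ube2q1 and Ube2q2 the pair begins before the window, and the letters there were not read. Ube2n held 7 cores, among them CCGGAAGT from base 210, but both of its overlapping peaks began beyond the start site, outside the window. Ube2l6 had 1 core, at base 80, under its ETS2 peak. Ube2t, with no peak at an end, also held 7 cores and TTCCGG from base 106. With 7 cores, Ube2t and Ube2n held the most of the 6 windows, although no deposited peak covers any base of either window. Ube2t does not stand for the other genes with no peak at an end. In the windows of 300 bases described below, Ube2t held 8 cores. There Ube2r2 and Ube2s held 1 each, Ube2d2b and Ube2dnl1 2 each, Ube2u 3, Ube2dnl2 4, Ube2e1 5 and Ube2a 6.

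The promoter table held 30 of the 37 genes with 41 windows of 300 bases, from 250 before to 50 after a start site. On either strand, GGAA was found in 92.7% of these windows and in 95.7% of the 21263 windows of all protein-coding genes, so the core alone separates little. The longer CCGGAA, which contains it, was in 10 of 41 windows (24.4%, beside 18.7% of all windows). CCGGAAGT, which contains both, was in 3 windows (7.32%, beside 5.15%), those of Ube2n and 2 overlapping windows of Ube2f that share one site. At Ube2f the site reads ACTTCCGG and begins at base 16, counting the upstream start site as base 1. It lay under the ETS1 peak, with its middle 62.5 bp from the peak's centre, and outside the ETS2 peak. Over all protein-coding genes, CCGGAA was in 45.5% of the 523 windows with a peak centre of both lists and 15.7% of the 18478 with neither. For CCGGAAGT these shares were 17.4% and 3.86%. Of the Ube2 windows, 2 held a centre of both lists, each with CCGGAA, and 6 of the 30 with neither had it. A match of these letters is a description of the window and not a site of either factor.

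The broad-acting UBE2D and UBE2E enzymes, which start and extend chains with many E3 ligases, held every kind of call. Of 9 genes, 2 were in both lists, 1 in each list alone and 5 in neither. Of all protein-coding genes 28.7% were in both and 49.3% in neither. Ube2d3 on chromosome 3 had the earliest ETS1 end peak of all 37 genes, at place 315 of 77295, 70 bp from its end (135438214 to 135438390). A second ETS1 peak (135438715 to 135438891) overlapped an ETS2 peak (135438652 to 135438838) by 124 bp. The lncRNA 4930539J05Rik, transcribed from the opposite strand, starts inside Ube2d3, 138 and 80 bp from the centres of that pair. Ube2d1 on chromosome 10 had an ETS2 peak centred 12 bp outside its upper end (71285303 to 71285489), which no ETS1 peak overlapped. Its overlapping pair stood further out, at 71285814 to 71285990 and 71285857 to 71286043.

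The UBE2E genes, closely related enzymes, each had a different call. Ube2e2 on chromosome 14 was in the ETS1 list alone, with a peak 481 bp from its upper end (18894677 to 18894853) near the foot of the file, at 98.9% of the deposited order. Its nearest ETS2 peak was 8230 bp from an end, although 16 ETS1 and 4 ETS2 peaks lay inside this gene of 320722 bp. Ube2e3 on chromosome 2 was in the ETS2 list alone, with a peak 295 bp from its lower end (78868438 to 78868624) and the nearest ETS1 peak 2523 bp away. Ube2e1 had neither by its gene ends, but its ETS1 peak lay 1092 bp from the upper end and 932 bp from the annotated start site. Ube2d2a on chromosome 18 missed the window by a small margin, with the nearest ETS1 centre 1021 bp inside its lower end. Ube2d2b and the X-linked genes Ube2dnl1 and Ube2dnl2, which are 1616, 930 and 929 bp long, had no peak near, with the closest at 6386 bp for Ube2d2b and 2533936 bp for Ube2dnl1.

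UBE2N builds the ubiquitin chains of NF-kappaB and DNA damage signalling together with UBE2V1 or UBE2V2, E2-like proteins that lack the catalytic cysteine. The 3 genes had 3 different calls. Ube2n on chromosome 10 had the closest pair of all members, with centres 6 bp apart and 176 bp shared (95515164 to 95515340 and 95515165 to 95515351). That ETS1 peak was late in its file, at 98.4% of the order, and the ETS2 file held 4 peaks at this one end. Ube2v1 on chromosome 2 was in the ETS1 list alone, with a peak 422 bp before its start (167632354 to 167632530) and the nearest ETS2 peak 2243 bp from the lower end. The start site of a lncRNA, Gm31852, lay 348 bp from the centre of that peak. Ube2v2 on chromosome 16 had neither, with the nearest peaks 3261 bp (ETS1) and 42609 bp (ETS2) from an end.

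UBE2C and UBE2S start and extend chains on the substrates of the anaphase-promoting complex, the ligase that ends mitosis. Ube2c on chromosome 2 had 3 ETS1 and 2 ETS2 peaks at its ends, and the pair at 164769441 to 164769617 and 164769396 to 164769582 overlapped by 142 bp. An ETS2 peak stood 54 bp from the start of Ube2c and the nearest ETS1 peak 227 bp from its finish. Ube2s on chromosome 7 had neither, with an ETS2 centre 1306 bp outside its start and the nearest ETS1 centre 14917 bp beyond its finish.

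Of the repair enzymes, Ube2b, a RAD6 enzyme that acts with RAD18 on the replication clamp and with RNF20 on histone H2B, was in both lists. Its pair on chromosome 11 (52004396 to 52004572 and 52004299 to 52004485) lay beyond the upper end, away from the annotated start sites. The ETS2 peak of the pair stood early in its file, at 3.49% of the order. Ube2b also had an ETS1 centre 501 bp and an ETS2 centre 736 bp from an annotated start site. Its twin Ube2a is on the X chromosome and had no peak closer than 200838 bp. Ube2w, which adds ubiquitin to the amino end of proteins, had 3 ETS1 and 2 ETS2 peaks, with a pair at 16618624 to 16618800 and 16618645 to 16618831 on chromosome 1. Ube2t, the E2 of the Fanconi anaemia pathway, had neither, and its nearest peak of the ETS2 list stood 6520 bp before its start.

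Among E2s of degradation and of the endoplasmic reticulum, 3 of 6 were in both lists, beside 28.7% of all protein-coding genes. Ube2g2, which serves the removal of misfolded proteins from the endoplasmic reticulum, carried its pair across the lower end on chromosome 10 (77622202 to 77622378 and 77622297 to 77622483), with centres 31 and 69 bp from it. Ube2j2, a membrane-anchored E2 of the same process, carried its pair across the start on chromosome 4 (155943711 to 155943887 and 155943762 to 155943948), with centres 14 and 42 bp from it. Its relative Ube2j1, on the same chromosome, had an ETS1 peak 533 bp inside the start (33031825 to 33032001) and no ETS2 peak closer than 80397 bp. Ube2g1 on chromosome 11 had an ETS1 peak (72607363 to 72607539) between 2 ETS2 peaks (72606926 to 72607112 and 72607635 to 72607821) and no overlap. Ube2k, which builds chains for degradation, was found by ETS2 alone on chromosome 5 (65536835 to 65537021, 317 bp outside the start). The upper end of the gene Smim14, on the opposite strand, lay closer to the centre of that peak, at 221 bp, and its nearest annotated start site was 43940 bp away. Ube2r2, a partner of cullin ligases, had neither, with an ETS2 peak 1066 bp and an ETS1 peak 1706 bp from an end.

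E2s of ubiquitin-like modifiers can be read beside their own cascades. For NEDD8, which activates cullin ligases, both E2 genes were in both lists. Ube2f on chromosome 1 had its pair 695 and 739 bp inside the gene (91250297 to 91250473 and 91250336 to 91250522), 81 and 125 bp from an annotated start site. Ube2m on chromosome 7 had an ETS2 centre 72 bp inside its start, but the pair of both lists was at its finish (13034470 to 13034646 and 13034409 to 13034595). The centres of that pair were 562 and 618 bp from Ube2m and 219 and 275 bp from the start site of the next gene, Chmp2a. Nedd8 and the E1 subunit gene Nae1 were in both lists, and the other subunit gene, Uba3, in the ETS2 list alone.

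For ISG15, an interferon-induced modifier, the E1 gene Uba7 was in both lists. The E2 gene Ube2l6 had an ETS2 peak 132 bp before its start on chromosome 2 (84798603 to 84798789) and the nearest ETS1 peak 1434 bp from its finish. Isg15 itself had neither.

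UBE2L3 works with HECT and RBR ligases, among them parkin and the linear chain complex. Ube2l3 on chromosome 16 had an ETS1 peak (17200856 to 17201032) and 2 ETS2 peaks (17201081 to 17201267 and 17201968 to 17202154) at its upper end, which did not overlap. Of the other genes, Ube2z, the E2 loaded by UBA6, had an ETS2 peak 3 bp from its start (96065268 to 96065454 on chromosome 11), and it overlapped an ETS1 peak (96065194 to 96065370) by 103 bp. A second pair stood 870 and 967 bp inside the gene. Uba6 was in the ETS2 list alone. Ube2o, a large enzyme that combines E2 and E3 activity, had its pair 388 and 357 bp inside the upper end on chromosome 11 (116581027 to 116581203 and 116581053 to 116581239). Ube2q1 and Ube2q2 had their pairs before the start, at 89773208 to 89773384 and 89773267 to 89773453 on chromosome 3, and at 55149045 to 55149221 and 55149022 to 55149208 on chromosome 9. For Ube2q1 the start site of a divergent lncRNA, 4632404H12Rik, was nearer to the centres of the pair, at 104 and 40 bp.

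Ube2h, the E2 of the CTLH ligase complex, was counted in both lists only through the end where it finishes on chromosome 6. An ETS1 peak (30210755 to 30210931) and 2 ETS2 peaks (30211029 to 30211215 and 30211583 to 30211769) stood there without overlap. At its upper end, where it starts, the nearest peaks were 2124 bp (ETS1) and 2151 bp (ETS2) away. Ube2cbp on chromosome 9 was in the ETS1 list alone, with peaks 137 bp (86464751 to 86464927) and 979 bp (86463909 to 86464085) inside its start and the nearest ETS2 peak 15121 bp from it. Ube2ql1 on chromosome 13 was in the ETS2 list alone (69739518 to 69739704, 286 bp inside the start), with the nearest ETS1 peak 6245 bp from its finish. Ube2u on chromosome 4 had neither, and its nearest peak was an ETS2 peak 76710 bp away.

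**Figure D2:**
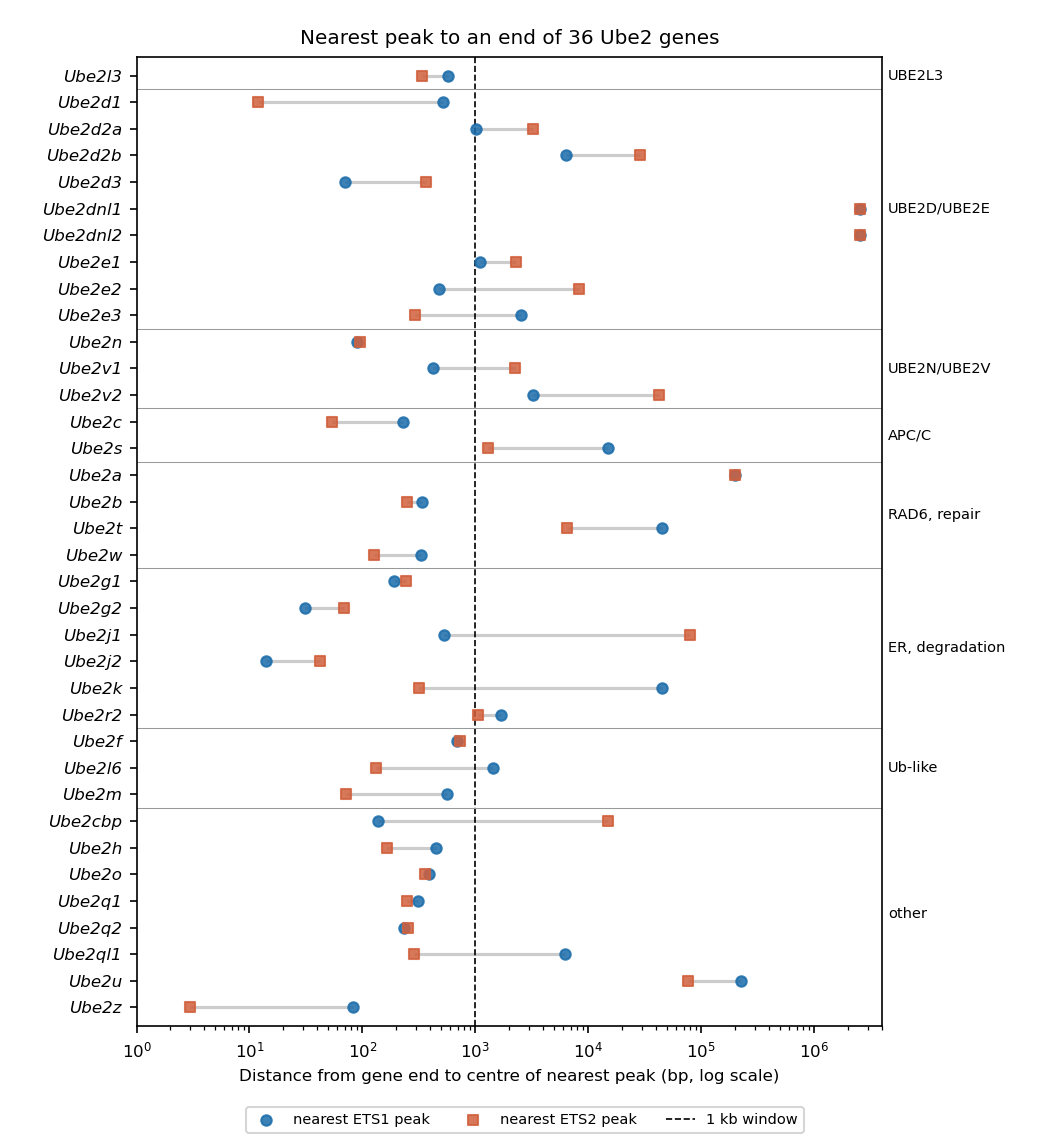
Distance in bp, on a log scale, from the nearer gene end to the centre of the nearest ETS1 peak (circles) and ETS2 peak (squares) for 36 Ube2 genes, grouped by role, with the 1 kb window as a dashed line. Both symbols lie left of the line for 17 genes and both lie right of it for 11, while Ube2j1, Ube2k and Ube2cbp have their symbols furthest apart among the genes found in 1 list.

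Peaks were commoner at the start-side end of the genes. Among the 30 genes with a strand, an ETS1 peak lay at the start-side end of 16 and at the finish-side end of 5. In all 17492 protein-coding genes with a strand these shares were 35.2% and 10.1%. For ETS2 the numbers were 16 and 2 genes, beside 37.3% and 8.00%. When only annotated start sites were used, 17 of 30 genes were in the ETS1 list, 17 in the ETS2 list and 12 in both, where 38.5%, 40.4% and 29.2% of all genes were. Overlapping pairs lay there at 9 of 30 genes (beside 20.0%). The ETS1 list alone held 5 genes (beside 9.21%) and the ETS2 list alone 5 (beside 11.2%), and 8 genes had neither (26.7%, beside 50.3%). Ube2m and Ube2h had the ETS2 peak alone by this measure, the latter 109 bp from a start site inside the gene, and Ube2e1 the ETS1 peak alone.

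Peak frequency differs between chromosomes in these files, so calls in a single list were read beside the chromosome. Autosomes were grouped by these same calls. The 7 with more genes in the ETS2 list alone than in the ETS1 list alone were 1, 4, 5, 6, 7, 10 and 19. There 18.5% of protein-coding genes were found with ETS2 and without ETS1 and 5.32% the reverse, a direction set by the grouping. These autosomes held 15 of the genes described here, of which 8 were in both lists (24.0% of all genes there), 1 in each list alone and 5 in neither (52.1% of all genes there). The 24.0% pools unlike chromosomes. Of the 8, 3 lay on chromosome 10 and 1 on chromosome 6, where 476 of 1001 and 458 of 1126 genes were in both lists. Chromosomes 1, 4 and 7 held 2, 1 and 1 of the 8. In both lists there were 254 of 1204, 187 of 1328 and 288 of 2030 genes. On the other 12 autosomes the order was, by the same choice, the opposite. There 15.5% of protein-coding genes were found with ETS1 and without ETS2 and 7.18% the reverse. Of 19 Ube2 genes there, 9 were in both (beside 34.9%), 3 in each list alone and 4 in neither (beside 42.4%). The ETS2-only gene Ube2k lay on chromosome 5, where 24.3% of genes had that call. By contrast, the other ETS2-only genes, Ube2e3 and Ube2l6 on chromosome 2 and Ube2ql1 on chromosome 13, lay where 7.52% and 7.48% of genes had that call. Ube2j1 was in the ETS1 list alone on chromosome 4, where 7.15% of genes were. Ube2v1, Ube2cbp and Ube2e2 were in the ETS1 list alone on chromosomes 2, 9 and 14, where 13.9%, 13.7% and 13.0% were. On the X chromosome 97.3% of 966 genes had neither peak, as did all 3 Ube2 genes there.

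**Figure D3:**
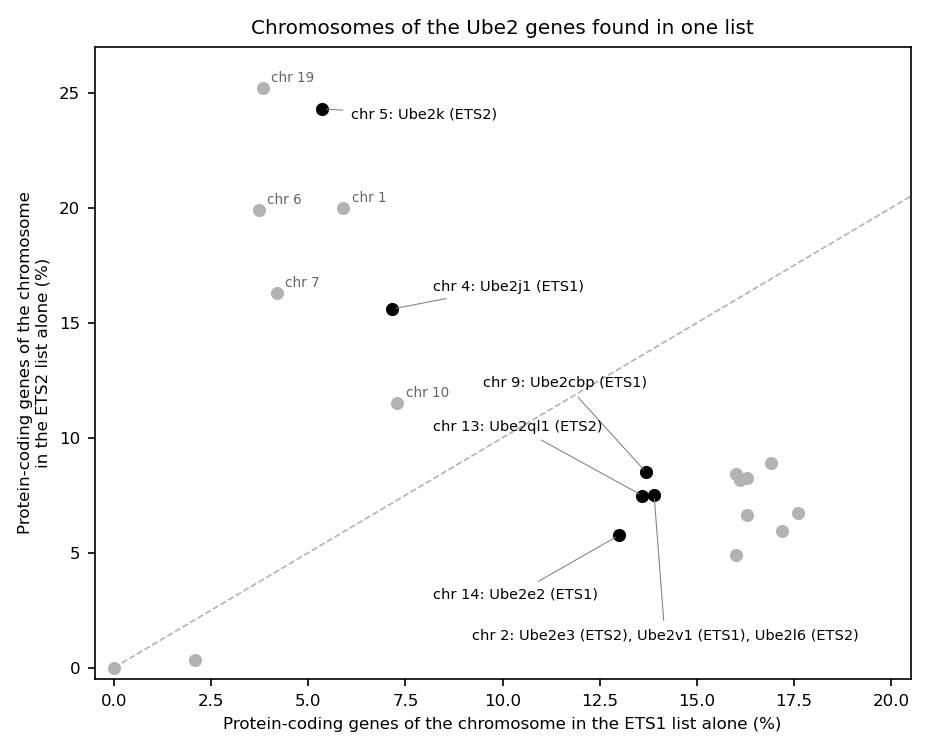
Each point is a chromosome, placed by the percentage of its protein-coding genes that only the ETS1 list holds (horizontal) and that only the ETS2 list holds (vertical), with the line of equal shares dashed. Black points carry the 8 Ube2 genes found in 1 list, and Ube2k and Ube2j1 are those on chromosomes above the line.

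Over the whole locus, taken as the gene and 10 kb on each side, the Ube2 genes had a median of 4 ETS1 and 2 ETS2 peaks, beside 2 and 1 for all protein-coding genes. Ube2h stood apart with 18 ETS1 and 47 ETS2 peaks. It spans 93251 bp on chromosome 6, which held 15524 of the 63343 ETS2 peaks on the chromosomes. The next highest were Ube2e2 with 17 ETS1 peaks and Ube2n with 13 ETS2 peaks. No ETS1 peak was found over 7 loci and no ETS2 peak over 7, and Ube2a, Ube2u, Ube2dnl1 and Ube2dnl2 had neither. The shares of all protein-coding genes without a peak over the locus were not computed, so these counts have no comparison. Ube2d2a, without an end peak, had 7 ETS1 and 5 ETS2 peaks over its locus.

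**Figure D4:**
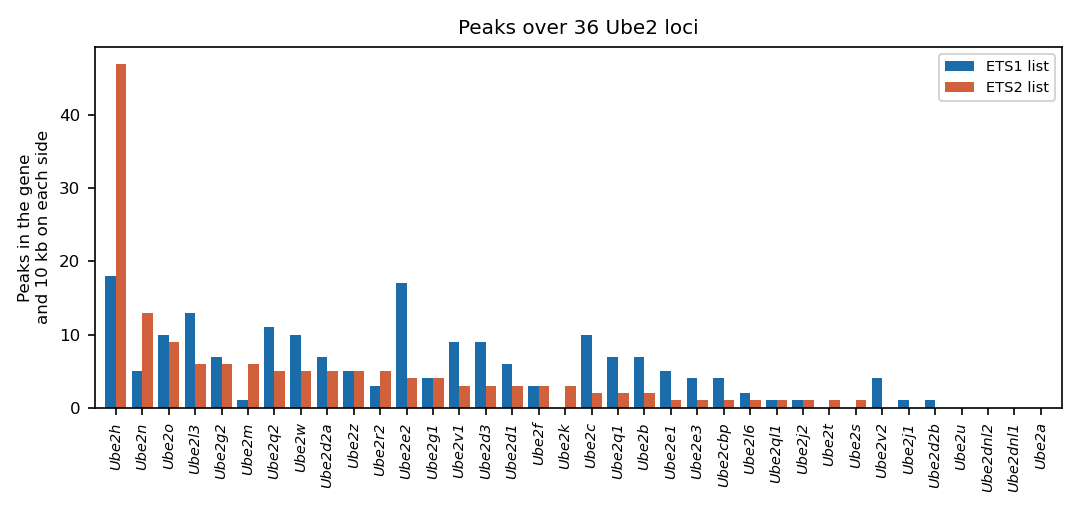
Number of ETS1 peaks (blue) and ETS2 peaks (orange) in each of 36 Ube2 genes and 10 kb on each side, ordered by the ETS2 number. Ube2h, with 18 and 47, is the highest in both lists, and 4 genes at the right have none.

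The place of the peaks in the deposited files differed between the lists. The 32 ETS1 peaks at ends of Ube2 genes had a median place at 54.0% of the file (0.408 to 98.9), where all 11073 ETS1 peaks at ends of protein-coding genes had 32.1%. The 35 ETS2 peaks had a median place at 25.7% (2.66 to 97.4), where all 10942 had 34.2%. In the first 50% of each file 13 genes kept an ETS1 peak and 20 an ETS2 peak, with 10 in both. Of all protein-coding genes 29.1%, 29.0% and 18.0% were then in the ETS1 list, the ETS2 list and both. The files hold no peak height, so place is the only order among peaks.

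CpG content of the promoter windows was lowest in genes with neither peak. In the window richest in CpG, the Ube2 genes in both lists had a median of 36 CpG (14 genes, 10 to 46) and those in neither 20 (9 genes, 1 to 39). The 4 genes in the ETS1 list alone had a median of 42.5, above that of the genes in both, and 3 in the ETS2 list alone had 30. Over all protein-coding genes the medians were 23 for both, 18 for ETS1 alone, 21 for ETS2 alone and 5 for neither. The part of base composition in the calls was not tested.

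Lists that cover only part of the rest of the ubiquitin system held 107 other genes. Of them, 72 (67.3%) were in the ETS1 list, 80 (74.8%) in the ETS2 list and 65 (60.7%) in both. Beside these and the counts below, the shares of all protein-coding genes were 39.4%, 40.0% and 28.7%. Genes of ubiquitin and its relatives were highest, with 16 of 18 in the ETS1 list and 17 in the ETS2 list. The ubiquitin genes Ubb and Rps27a were in both, with ETS1 centres 283 and 560 bp and ETS2 centres 398 and 469 bp from an end. The anaphase-promoting complex had 13 of 16 genes in each list and 12 in both, and Anapc15 and Anapc5 were in neither. Of 11 E1 genes, 7 were in the ETS1 list and 9 in the ETS2 list. The 2 in neither, Uba1 and Uba1y, lie on the sex chromosomes. Other E2 and E2-like genes had 7 of 8 in the ETS1 list and 6 in the ETS2 list, with Cdc34, Birc6 and Atg3 in both. The cullin core had 8 and 9 of 13 genes, RBR ligases 7 and 9 of 14, and HECT ligases 14 and 17 of 27. HECT ligases had the lowest share of genes in both lists among these 7 lists, 10 of 27 (37.0%). The ETS1 list alone held 4 of the 27 and the ETS2 list alone 7, beside 10.7% and 11.3% of all protein-coding genes.

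**Figure D5:**
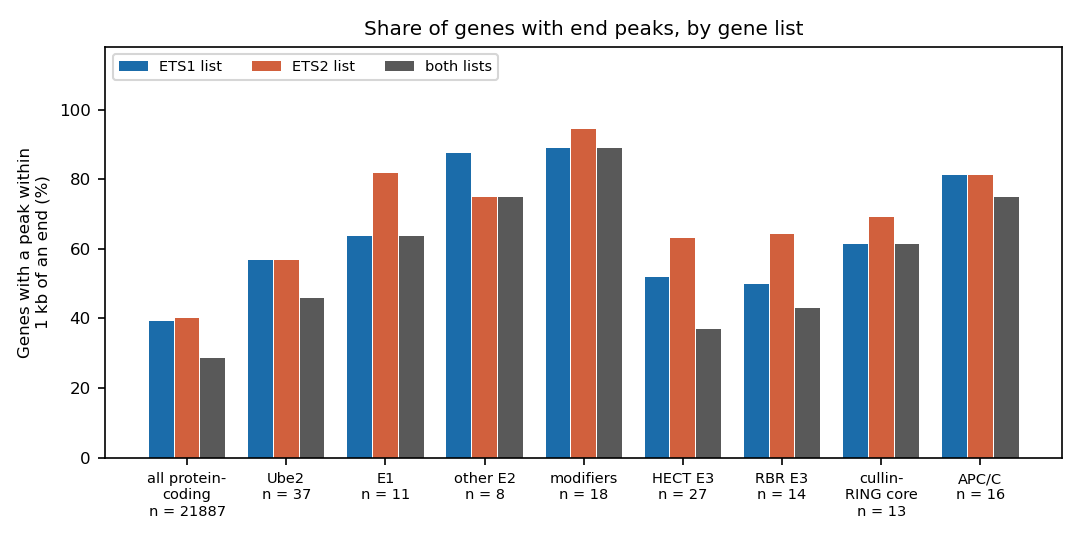
Percentage of genes with a peak within 1 kb of an end in the ETS1 list, the ETS2 list and both, for all protein-coding genes, the Ube2 genes and 7 lists of other ubiquitin pathway genes, with the number of genes under each. Ube2 bars reach 56.8, 56.8 and 45.9, above those of all protein-coding genes at 39.4, 40.0 and 28.7, and below those of the modifiers and the anaphase-promoting complex.

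As a look at the labelled cell type, 4 of 8 endothelial marker genes (Cdh5, Emcn, Kdr and Tie1) had an ETS2 peak at an end, near the 40.0% of all protein-coding genes, and 0 had an ETS1 peak, beside 39.4%. A peak does not measure expression, so this neither shows nor tests the identity of the cells.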

How the data were processed

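ChIP-seq libraries of an ETS1 and an ETS2 antibody, 1 each, were used as deposited peak lists. The submitters' processing notes name CASAVA 1.8, HOMER and Bowtie2, with both mm9 and mm10 as builds. Per the file headers, HOMER findPeaks in factor style ran on tag directories named for mm10 with a false discovery rate of 0.01, a threshold of 30 tags in a peak and no control directory, and the options for fold over control, local fold and Poisson significance were 0. The headers give 143778022 tags and 77295 peaks for ETS1, and 134607908 tags and 63556 peaks for ETS2, with 1.89% and 1.53% of tags in peaks. The score deposited by the authors is the constant 1 and was not used. One threshold held genome-wide, so segments with more reads could pass it more often. Reads per segment were not read here, and this was not tested. Peaks on chromosomes 1 to 19, X and Y were kept (77053 and 63343), and coordinates were made 1-based.

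Gene ends came from a RefSeq table and start sites, strand and sequence from a RefSeq promoter table, both of GRCm38.p6. Peak centres within 1 kb of an end were counted with pandas 2.3.3, and the assignment was checked on simulated peaks. No test was run across genes or between the antibodies. The members and the lists were chosen with earlier results of these data known. The rule names every member under its role, with coordinates for members with overlapping peaks or in 1 list, but 1 member and a few other pathway genes are counted and not reported here by name. Lists of 108 other pathway genes gave 107, since 1 entry led to a Ube2 gene by an older symbol and was left out. Alternatives changed the window, the measure of distance, the part of the file, the chromosomes, the use of start sites, the overlap and the motif. Exons, introns and UTRs were not analysed here.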

Additional observations from a re-analysis of the deposited data

How the results depend on the processing

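Of 57 values recomputed for 10 counts with 1 choice changed at a time, 48 were within 1.5 times the reported count and 9 moved further. In the first 50% of each deposited file, 13 Ube2 genes had an ETS1 peak in place of 21, 10 were in both lists in place of 17, 10 were in the ETS2 list alone in place of 4, 9 had overlapping peaks in place of 14, and 39 other pathway genes were in both lists in place of 65. This alternative leaves fewer peaks by construction. Within 500 bp, 7 Ube2 genes were in the ETS2 list alone and 9 had overlapping peaks. At this distance 16 of 37 were in the ETS1 list, 20 in the ETS2 list and 13 in both, beside 30.7%, 31.9% and 20.4% of all protein-coding genes. For 500 bp and for the first 50% of each file, shares of all genes in a single list or with overlapping peaks are not given. At annotated start sites only, 9 had overlapping peaks, with 30 genes in place of 37. The shorter motif CCGGAA was in 10 windows, CCGGAAGT in 3. Motifs were counted in promoter windows, so only the parts of peaks inside a window were read. No paired analysis was possible because each antibody has 1 library. Depth limits each list at 30 tags in a peak, so a gene without a peak may hold signal under that threshold.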

Other observations

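Genes with a Ube2 symbol that are not protein-coding were outside the 37. Ube2d-ps, annotated as a lncRNA on chromosome 11 (5762150 to 5784710), had an ETS1 peak 34 bp and an ETS2 peak 19 bp from an end. The pseudogene Ube2nl on chromosome 7 had an ETS1 centre at 997 bp and its nearest ETS2 peak at 13187 bp. The pseudogenes Ube2l3-ps1 and Ube2n-ps1 had no peak within 1 kb of an end, with the nearest at 63273 and 4904 bp, both of the ETS2 list. Ube2uos, a lncRNA at the Ube2u locus, had its nearest peak at 121069 bp. All 5 values are descriptions of the deposited lists.

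Of the 32 ETS1 and 35 ETS2 peaks at ends of Ube2 genes, 9 and 9 also lay within 1 kb of an end of another annotated gene, and 1 and 2 within 1 kb of an end of another protein-coding gene. The same shares for end peaks of all protein-coding genes were not computed, so these counts have no comparison.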
